A study of Danio rerio with 16 samples.

Results

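The sites described here are the poly(A) sites of the long arm of zebrafish (Danio rerio) chromosome 4, taken as every cluster of RNA 3′ ends at position 28000000 or above, on either strand. There were 888 such clusters of 90940 in the genome, 420 of them plus-strand and 468 minus-strand. The 2125 clusters of chromosome 4 below that position served as the comparison. The ends were mapped by 3P-Seq, which sequences the ends of polyadenylated RNA next to the tail. The study set out to find long intergenic noncoding RNAs, and 3 of its 16 samples were 3P-Seq libraries: whole wild-type embryos 24 hours post fertilization (hpf), whole wild-type embryos at 72 hpf, and whole wild-type adults of mixed gender. Each stage has 1 library, so no test between stages was possible and each difference below is between libraries. All positions are 1-based danRer7 (Zv9) coordinates on chromosome 4.

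Cleavage and polyadenylation set the 3′ end of most messenger RNAs and many long noncoding RNAs, so a poly(A) site marks where a transcript stops. The long arm of zebrafish chromosome 4 is known as a heterochromatic, late-replicating arm rich in repeats, with large families of zinc finger genes, NLR genes (relatives of intracellular immune receptors) and genes for small noncoding RNAs such as 5S rRNA. In wild strains it also carries a sex-linked region. No annotation of this build was used here, so no site below is given a gene.

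The library totals were 7423152 tags at 24 hpf, 9813481 at 72 hpf and 7470435 in adults. Levels are given in CPM, tags scaled to 1000000 per library, so 1 tag is worth 0.135, 0.102 and 0.134 CPM in that order. A count of 0 allows up to 3 tags, or 0.404, 0.306 and 0.402 CPM. Intervals in brackets are exact Clopper-Pearson 95% intervals. They and the floors cover counting error only, and tags copied from the same molecule by PCR make them too narrow. In whole animals, fewer cells that use a site and less RNA per cell cannot be told apart.

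The long arm was thinly set with poly(A) sites. It had 26.1 clusters per Mb, against 75.9 on chromosome 4 below 28 Mb and 53.1 to 76.9 on the other 24 chromosomes. The median gap between neighbouring clusters of the same strand was 17156 nt on the long arm and 1059 nt below 28 Mb, and 23.8% and 7.40% of the gaps were longer than 100 kb. Its sites were also weaker. The median cluster had 10 tags over the 3 libraries, against 12 below 28 Mb, and 89 clusters (10.02%) reached 100 tags, against 387 (18.2%). Per Mb, the arm gave 60.4 CPM at 24 hpf, 51.7 at 72 hpf and 186 in adults. The lowest values among the 25 other units (24 chromosomes and chromosome 4 below 28 Mb) were 345, 351 and 408 CPM per Mb. No test was made between these units, since clusters of 1 library are not replicates.

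As a whole, the arm held 0.206% of the tags at 24 hpf (0.203% to 0.209%), 0.176% at 72 hpf (0.174% to 0.179%) and 0.635% in adults (0.629% to 0.641%). Summed over its clusters this was 2060.2, 1761 and 6350.1 CPM in stage order, a 3.08-fold ratio of adult to 24 hpf (3.03 to 3.14) and a 3.61-fold ratio of adult to 72 hpf (3.54 to 3.67). These ratios rest on 6 sites. Without the 6 minus-strand sites between 61123939 and 61147431 described below, the arm stood at 2028 CPM at 24 hpf, 1761 at 72 hpf and 2127 in adults, and the ratios were 1.05 (1.03 to 1.07) and 1.21 (1.18 to 1.23). When each distinct interval counted once in place of its tags, the adult was lower than 24 hpf, at 0.755 (0.713 to 0.800), and its ratio to 72 hpf, 0.970 (0.917 to 1.03), had an interval that included 1. Intervals with 1 tag made up 53.0% of all intervals in the adult library, 15.1% at 24 hpf and 14.6% at 72 hpf, and their part in these ratios was not tested. Chromosome 4 below 28 Mb gave 16338, 16564 and 25083 CPM, and 1 site there held 51.4% of its adult tags.

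**Figure D1:**
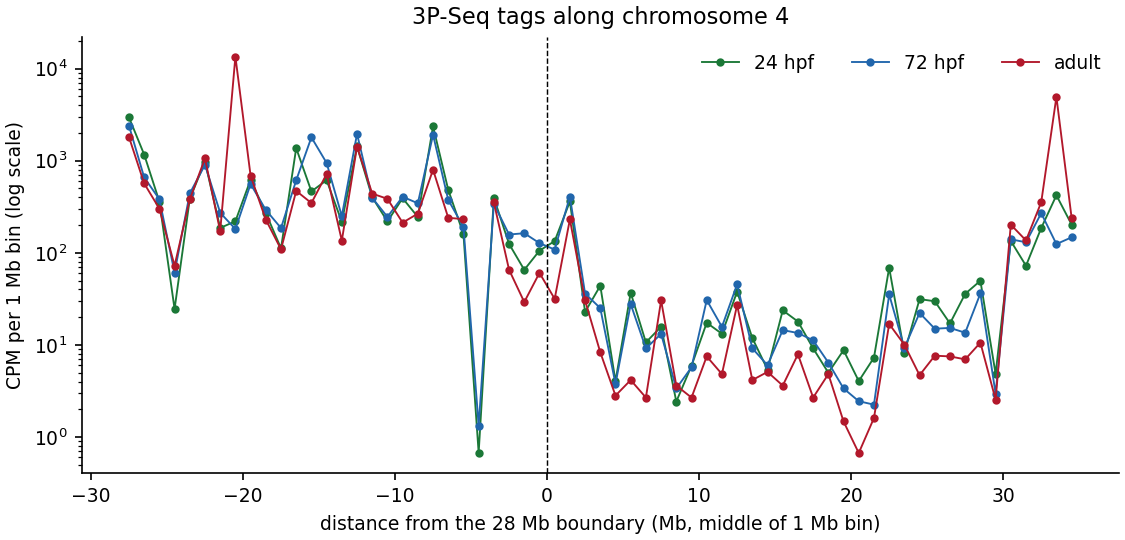
CPM in each 1 Mb bin of chromosome 4 (log y axis) against the distance of the bin's middle from the 28 Mb boundary (x axis, Mb), with 1 line per library; bins without tags are not drawn. From 30 to 58 Mb the bins lie between 0.669 and 68.8 CPM, and the adult line rises to 4933 CPM in the bin from 61 Mb.

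The arm fell into 3 segments, a division made after the values were seen. From 28 to 30 Mb, 82 clusters held 495 CPM at 24 hpf, 516 at 72 hpf and 262 in adults. From 30 to 58 Mb, 382 clusters over 28 Mb held 549, 434 and 223 CPM. From 58 Mb to the last cluster at 62086510, a stretch of 4.09 Mb, 424 clusters held 1016, 811 and 5865 CPM. The end segment had 104 clusters per Mb, more than chromosome 4 below 28 Mb, and the middle segment had 13.6. Of the end segment's clusters, 184 lay in the bin from 61 Mb, and 53 of these in a stretch of 3720 nt described below. The bins from 58, 59 and 60 Mb held 87, 69 and 62. Low adult values were not limited to the arm: the bins from 25, 26 and 27 Mb, just below it, held 125, 65.3 and 105 CPM at 24 hpf and 65.5, 29.2 and 60.5 in the adult.

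**Figure D2:**
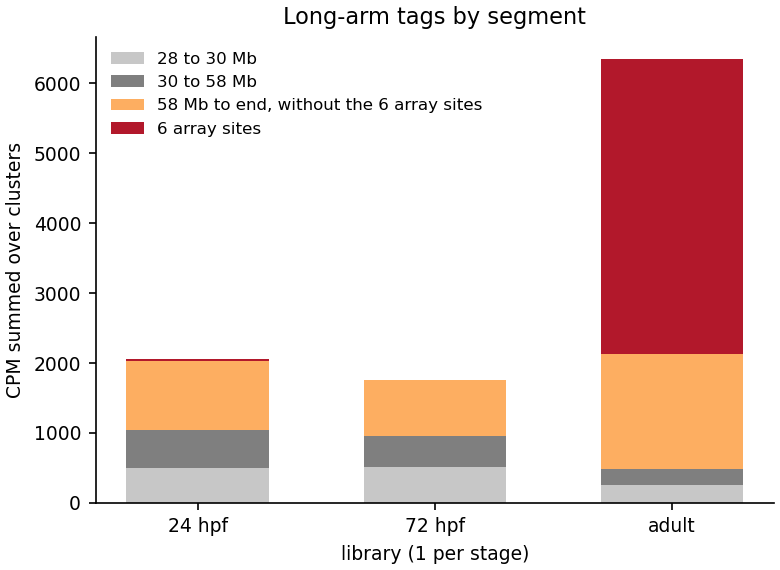
CPM of the long arm summed over clusters (y axis) in each library (x axis), stacked by segment, with the 6 evenly spaced minus-strand sites drawn apart as array sites. These 6 sites add 31.8 CPM at 24 hpf, none at 72 hpf and 4223 in adults.

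The strongest adult signal of the arm was a row of 6 minus-strand sites at 61123939, 61128601, 61133263, 61138032, 61142645 and 61147431. They lay 4613 to 4786 nt apart, in 5 steps with a mean of 4698 nt, over 23492 nt. In the adult they held 5007, 6103, 6131, 4939, 4999 and 4369 tags in that order, or 585 to 821 CPM each. At 24 hpf they held 25, 59, 49, 26, 27 and 50 tags. None had a tag at 72 hpf. The row was chosen on these values, as minus-strand sites under 5000 nt apart with at least 1000 adult tags and none at 72 hpf, so its high adult level and its absence at 72 hpf are a description. Within it, the highest adult site had 1.40 times the tags of the lowest.

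Together the 6 sites gave 4223 adult CPM, 66.5% of all adult tags of the arm, and 1.54% of its tags at 24 hpf. Their adult sum was 133-fold that at 24 hpf (117 to 152). With the empty 72 hpf library set to the floor of 3 tags over the group, the adult sum was 13814-fold higher than at that stage, and the lower limit of the exact 95% interval was 11234-fold. The adult tags at each site were spread over 58 to 64 distinct intervals, whereas 4 to 6 intervals carried the tags of each site at 24 hpf. Most adult tags ended at 1 position, 87.0% to 93.0% of those at each site. A further 22 minus-strand clusters within 500 nt of the row held 331 adult tags and 4 tags at 24 hpf.

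The interval profiles divided the row. A profile is the number of tags for each pairing of end position and interval length, and 2 profiles drawn from the same mixture give a chi-square per degree of freedom near 1. The sites at 61123939, 61138032 and 61142645 matched each other, at 0.856 to 0.875, with totals within 1.01 times. Those at 61128601 and 61133263 matched at 1.31, with totals within 1.00 times. Between these sets the value was 6.40 to 7.48. The last site, at 61147431, stood nearer to the latter 2 (2.43 and 2.22) than to the other 3 (6.38 to 6.84).

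**Figure D3:**
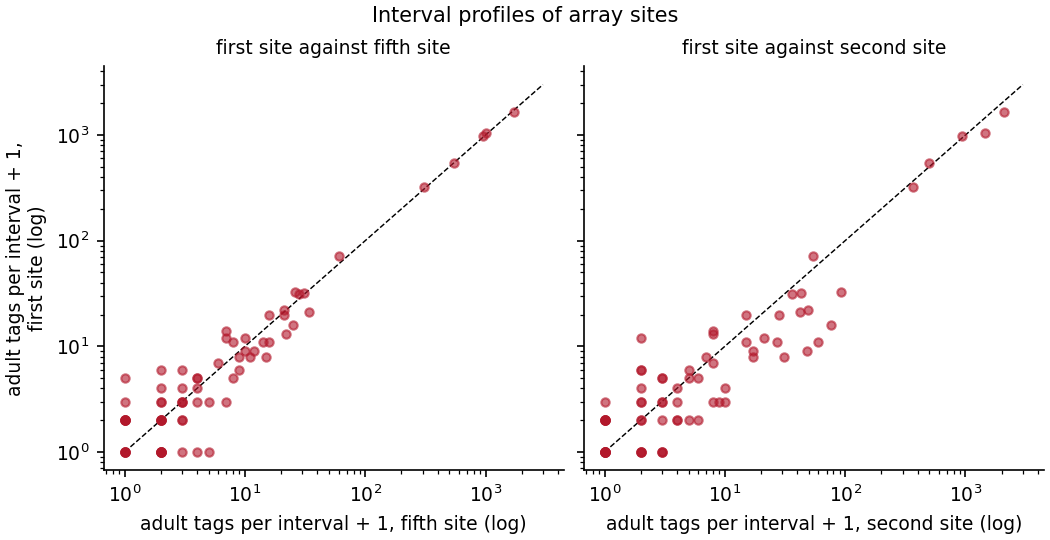
Adult tags per interval plus 1 (both axes logarithmic) at 61123939, the first site of the row, against 61142645 (left) and 61128601 (right), 1 point per end position and interval length, with the dashed line marking equal counts. Points follow the line on the left (chi-square per degree of freedom 0.858) and spread from it on the right (7.20).

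Other sites near the end of the arm were also high in the adult library. The minus-strand site at 61900673 had 5 tags at 24 hpf, none at 72 hpf and 2414 in adults, a ratio of 480-fold between adult and 24 hpf (205 to 1479). Its 5 tags at 24 hpf came from 1 interval. The minus-strand sites at 61294384 and 61896591 had 215 and 144 adult tags and were without tags in both embryo libraries. With the row of 6 these made 9 clusters that had at least 100 adult tags and none at 72 hpf, a selection made on the values, and all 9 lay on the minus strand. The plus-strand site at 62049679 went from 100 tags at 24 hpf and 111 at 72 hpf to 886 in the adult, 8.80-fold above 24 hpf (7.15 to 10.9).

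Clusters detected in the first and the last stage while missing at 72 hpf can be counted over the whole arm. With detection set at 4 tags, 27 clusters had this pattern, 3.04% of the arm's clusters against 2.78% of all clusters. They held 72.4% of the arm's adult tags. Among them are the row of 6 and the site at 61900673, both chosen on their values. These held 66.5% and 5.09% of the arm's adult tags.

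At 24 hpf the site with most tags was the plus-strand site at 29661817, with 2369 tags there, 1837 at 72 hpf and 1417 in adults. These are 319, 187 and 190 CPM, and the site held 15.5% of the arm's tags at 24 hpf. It led the arm at 72 hpf as well. The plus-strand sites at 60264583 (75.7, 32.5 and 56.4 CPM) and 62081128 (60.1, 41.1 and 72.0 CPM) were likewise present in each library, and neither reached a 4-fold ratio in any pair. The minus-strand site at 62059394 had 80.8 CPM at 24 hpf, 70.5 at 72 hpf and 13.8 in adults, so it was high in both embryo libraries and low in the adult.

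A short stretch of the minus strand carried signal mostly at 24 hpf. Between 61296127 and 61299847, over 3720 nt, 53 clusters held 2022 tags in the 24 hpf library, 287 in the 72 hpf library and 409 in the adult library. This was 13.2%, 1.66% and 0.862% of the arm's tags in stage order. The sum at 24 hpf was 9.31-fold that at 72 hpf (8.23 to 10.6) and 4.98-fold that in the adult (4.47 to 5.55). Of the 53 clusters, 46 reached 4 tags at 24 hpf, 8 at 72 hpf and 15 in adults, and 39 had under 20 tags in all, so most of them are weak ends around a few stronger ones. The stretch was chosen after its values were seen.

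Its sites did not all do the same. The site at 61297390 had 472 tags at 24 hpf, 14 at 72 hpf and 11 in adults, 44.6-fold higher at 24 hpf than at 72 hpf (26.3 to 82.2). The site at 61299625 had 190, 5 and 4 tags. The strongest site, at 61299022, had 475, 162 and 260 tags, and its adult level was 0.544 times that at 24 hpf (0.466 to 0.634). Close clusters such as 61297371 and 61297390, 19 nt apart, were counted separately, and their separateness was not tested.

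**Figure D4:**
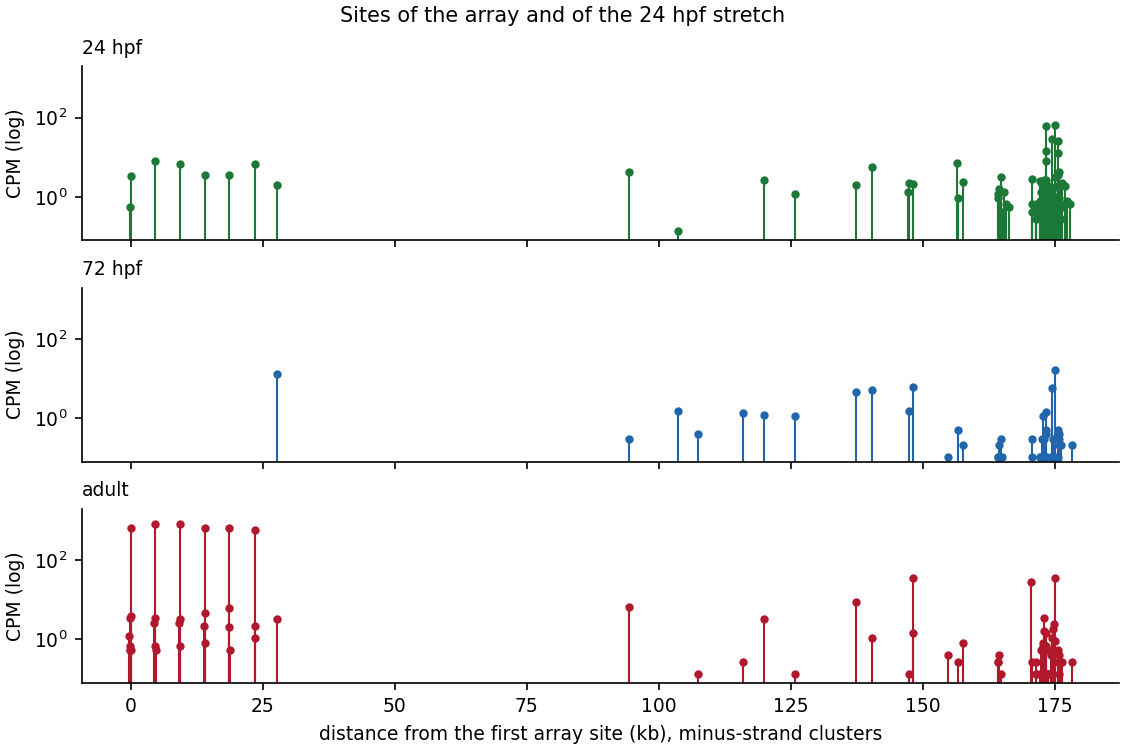
CPM (log y axis) of the minus-strand clusters against their distance from the first site of the row (x axis, kb; the row is called the array there), with 1 panel per library; clusters without tags are not drawn. The 6 evenly spaced sites stand at 585 to 821 CPM in the adult, at 3.37 to 7.95 CPM at 24 hpf and are missing at 72 hpf, and the dense stretch at the right is highest at 24 hpf.

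The sites highest at 72 hpf lay mostly elsewhere. The plus-strand site at 29628590 had 5 tags at 24 hpf, 1011 at 72 hpf and 185 in adults, 153-fold higher at 72 hpf than at 24 hpf (65.3 to 472). The nearby site at 29639074, on the same strand, had 215, 939 and 53 tags in the same order. Both lay upstream of the leading site at 29661817, which did not share their higher level at 72 hpf: its level at 72 hpf was 0.587 times that at 24 hpf (0.552 to 0.624). The plus-strand site at 60743766 had 56, 760 and 233 tags, 10.3-fold higher at 72 hpf than at 24 hpf (7.82 to 13.7). The minus-strand site at 59767801 had 2, 203 and 10 tags.

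A set of 3 minus-strand sites lay up to 8.93 Mb apart. They were picked because their tag totals and interval profiles at 72 hpf were near-equal by the rule given below. That rule needs at least 100 tags in a library, which they reached only at 72 hpf. Their likeness and their higher level at that stage are therefore a description. The sites at 29953166, 30513010 and 38887069 had 103, 107 and 104 tags at 72 hpf, 11, 9 and 2 tags at 24 hpf, and none in the adult. Over 6 classes of intervals, the chi-square per degree of freedom was 0.307 to 0.787. Summed over the 3, the level at 72 hpf was 10.8-fold that at 24 hpf (7.01 to 17.5). It was 79.7-fold the floor of 3 tags over the group in the adult, and the lower limit of the exact 95% interval was 64.4-fold.

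Between libraries, a cluster was called when its CPM differed 4-fold or more and the interval of the ratio excluded 2-fold, among clusters with at least 20 tags over the pair. A library without tags was set to 3 tags for the fold. For the adult against 24 hpf, 204 of the 888 clusters could be tested. Of these, 69 (33.8%) were higher in the adult, beside 23.5% of all tested clusters in the genome, and 68 (33.3%) were lower, beside 20.2%. On chromosome 4 below 28 Mb, 128 of 638 (20.1%) were higher and 121 (19.0%) lower. The arm's share of called clusters, 67.2%, stood above each of the 25 other units, which ranged from 39.0% to 50.1%. The median log2 ratio was -0.78 on the arm, -0.17 below 28 Mb and -0.05 over all clusters.

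The share of calls differed with tags. Few tags give wide intervals, yet over all clusters the share called for this pair was highest with the fewest tags. Among clusters with 20 to 49 tags over this pair, 63 of 104 on the arm (60.6%) were called, against 47.2% of all clusters. From 50 to under 200 tags it was 50 of 67 (74.6%) against 44.9%, and with at least 200 tags 24 of 33 (72.7%) against 37.4%. Without the 184 clusters of the bin from 61 Mb, 42 of 149 (28.2%) were higher and 54 (36.2%) lower. With distinct intervals in place of tags, 47 clusters could be tested, of which 8 (17.0%) were higher and 3 (6.38%) lower, against 3.55% and 3.11% of all clusters counted that way.

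For the adult against 72 hpf, 223 clusters were tested. Of these, 60 (26.9%) were higher in the adult, beside 19.1% of all clusters, and 64 (28.7%) were lower, beside 27.9%, so the share of lower calls was close to that of the genome. Median-ratio scaling, which added 0.39 to each log2 ratio here, gave 67 higher (30.04%) and 40 lower (17.9%), against 21.9% and 21.8% of all clusters under that scaling, so the share of lower calls was then below that of the genome. Without the bin from 61 Mb, 32 of 181 (17.7%) were higher and 59 (32.6%) lower, beside 19.1% and 27.9% of all clusters. The share of higher calls was then below that of the genome, and the share of lower calls above it. With distinct intervals in place of tags, 11 of 52 (21.2%) were higher and 0 lower, against 5.59% and 2.82% of all clusters counted that way.

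For 72 hpf against 24 hpf, 221 clusters were tested. Of these, 30 (13.6%) were higher at 72 hpf, beside 20.1% of all clusters, and 39 (17.6%) were lower, beside 7.99%. Many of the lower calls came from a short part of the arm. Without the bin from 61 Mb, 29 of 180 (16.1%) were higher and 17 (9.44%) lower, beside 20.1% and 7.99% of all clusters. Distinct intervals in place of tags gave 0 higher and 1 lower (3.125%) among 32 tested, against 0.290% and 0.566% of all clusters.

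**Figure D5:**
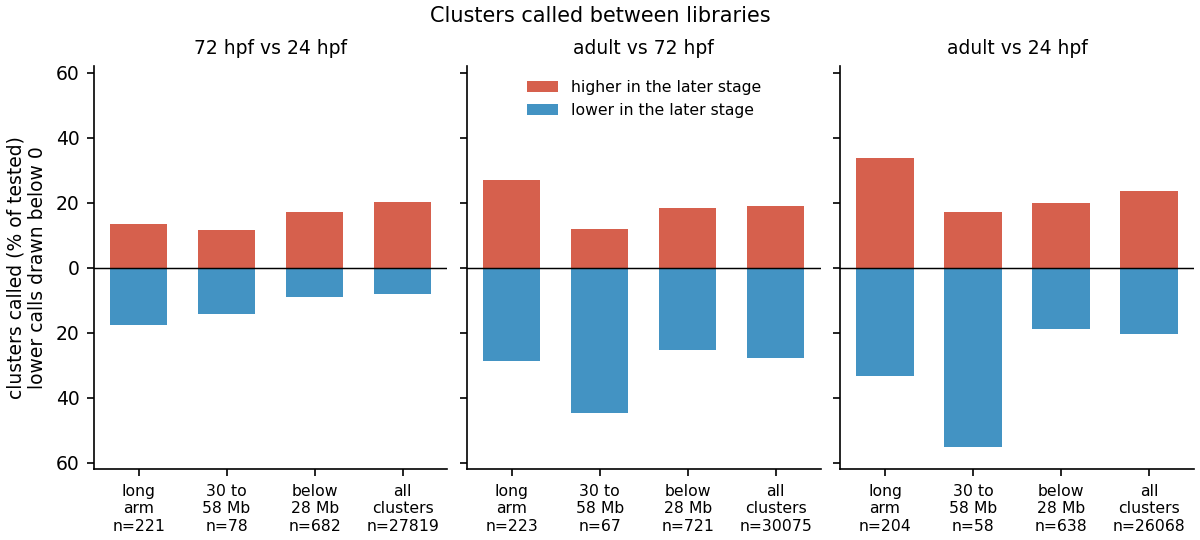
Percent of tested clusters called higher (above 0) or lower (drawn below 0) in the later stage of each pair of libraries (y axis), for the long arm, its middle segment, chromosome 4 below 28 Mb and all clusters; the number tested stands under each bar. In the middle segment 55.2% of the tested clusters are lower in the adult than at 24 hpf, against 20.2% of all clusters. In the segment from 28 to 30 Mb, which is not drawn, it is 53.3%.

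The middle segment, from 30 to 58 Mb, was low in the adult library. Of its 28 bins of 1 Mb, 24 had less CPM in the adult than in either embryo library, against 18 of 28 bins of chromosome 4 below 28 Mb. Against 24 hpf, 32 of 58 tested clusters (55.2%) were lower in the adult and 10 higher (17.2%), beside 20.2% and 23.5% of all clusters. The median log2 ratio was -2.52. Against 72 hpf, 30 of 67 (44.8%) were lower and 8 (11.9%) higher, beside 27.9% and 19.1%. Between the embryo libraries 9 of 78 (11.5%) were higher at 72 hpf and 11 (14.1%) lower, beside 20.1% and 7.99%. Low adult calls were not particular to the middle segment. From 28 to 30 Mb, 8 of 15 tested clusters (53.3%) were lower in the adult than at 24 hpf and 2 higher, with a median log2 ratio of -2.40. Against 72 hpf, 11 of 20 (55%) were lower there and 1 higher. In the end segment the adult calls went mostly the other way, with 57 of 131 (43.5%) higher than at 24 hpf and 28 (21.4%) lower. These stood beside 23.5% and 20.2% of all clusters, so the share of lower calls was close to that of the genome. Without the row of 6 they were 51 (40.8%) and 28 (22.4%) of 125. The 22 weaker minus-strand clusters around the row were not left out there.

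The leading clusters of the middle segment showed the same order. Of its 12 clusters with most tags, 10 were lower in the adult than in both embryo libraries. The 12 include near-equal sites counted separately, such as the plus-strand pair at 50979422 and 56732019 described below. Plus-strand 33177554 had 216 tags at 24 hpf, 218 at 72 hpf and 26 in adults. Plus-strand 52851413 had 95, 79 and 2 tags. An exception was the plus-strand site at 30014748, with 12, 72 and 123 tags. The plus-strand site at 40668130 (28.4, 33.6 and 22.1 CPM) was not called in any pair.

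Strand use differed along the arm. All 12 leading clusters of the middle segment lay on the plus strand, as did 16 of its 22 clusters with at least 100 tags. Near-equal sites among them were each counted, and their part in these counts was not tested. Of its tags, 73.7% at 24 hpf, 70.1% at 72 hpf and 67.3% in adults were on the plus strand. From 28 to 30 Mb the plus strand held 92.4%, 90.7% and 92.2% of the tags, but only 44 of 82 clusters (53.7%). The plus-strand site at 29661817 alone held 64.5%, 36.3% and 72.4% of that segment's tags in stage order. In the end segment, 267 of 424 clusters (63.0%) lay on the minus strand, with 67.4%, 50.9% and 87.2% of the tags, and without the row of 6 the adult share there was 54.2%. The minus-strand stretch between 61296127 and 61299847 gave 53 of the 267 clusters, and 2022 of the segment's 7541 tags at 24 hpf. The part of this stretch in the minus-strand shares was not tested. Over all clusters 50.6% lay on the plus strand.

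Fewer of the arm's sites were shared by the stages. The arm's clusters also had fewer tags, with 67.6% under 20 against 60.3% below 28 Mb. The share under 20 was 69.5% from 28 to 30 Mb, 75.1% in the middle segment and 60.4% in the end segment. The part of tag number in the sharing was not tested. Detection was met by 447 of its clusters at 24 hpf, 468 at 72 hpf and 334 in adults. All 3 libraries detected 128 (14.4%), against 24.7% of the clusters below 28 Mb and 20.7% to 24.7% in the 25 other units. These 128 held 73.9% of the arm's tags at 24 hpf and 74.1% at 72 hpf, but 20.3% in the adult. Clusters detected at 24 hpf alone made up 21.6% of the arm's clusters (192), against 13.4% below 28 Mb and 14.3% over all clusters. Those detected in the adult alone made up 14.5% (129), against 16.3% and 17.0%. Most of these are weak, with medians of 7 tags over the 3 libraries for 24 hpf alone and 8 for the adult alone. The 192 include close, weak ends of the minus-strand stretch between 61296127 and 61299847, which was chosen on its values. Of its 53 counted ends, 46 met the 4-tag limit in the 24 hpf library, 8 in the 72 hpf library and 15 in the adult library. The part of this stretch in the higher share for 24 hpf alone was not tested. A minimum of 10 tags left 222, 226 and 177 clusters detected in the 3 libraries. With tags thinned to the size of the smallest library, the counts were 447, 382 and 334 in stage order. Detection by at least 2 distinct intervals gave 333, 338 and 404, so the adult count was then the highest. The order of the stages in these counts thus depends on depth and on the rule of detection.

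Matching sites were not limited to the row of 6. Clusters that reached 100 tags in a library were compared with every other such cluster of the arm, and were counted as near-equal when the larger total was no more than 1.1 times the smaller and their profiles gave a chi-square per degree of freedom under 1.6. Of 63 clusters with 100 tags, 14 (22.2%) had a near-equal partner, in 10 pairs, each on the same strand. Below 28 Mb, 27 of 301 (8.97%) did, in 18 pairs of which 10 were on the same strand. The rule can be met by clusters with few intervals, and no pair below 28 Mb recurred in another library. On the arm, 2 pairs did.

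The pair of plus-strand sites at 50979422 and 56732019, 5.75 Mb apart, had 137 and 147 tags at 24 hpf and 100 and 108 at 72 hpf, with chi-square per degree of freedom of 0.906 and 0.446. Near them, the plus-strand sites at 50981614 and 56739313 had 151 tags each at 72 hpf. The pair at 60731229 and 60827414 had 179 and 187 tags at 72 hpf and 335 and 356 in the adult, with 0.834 and 0.803. The near-equal clusters together held 6.28% of the arm's tags at 24 hpf, 6.88% at 72 hpf and 59.0% in adults. Of the 14, 5 belong to the row of 6 and held 57.3% of the arm's adult tags. The other 9 held 5.07%, 6.88% and 1.70% in stage order. How tags matching several places were assigned is not given in the sources used here, and its part in these counts was not tested.

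Neighbouring sites of the same strand, 50 to 5000 nt apart, were compared by the share of their tags at the downstream site, with at least 20 tags in each library. Such pairs may belong to different genes. A site can also belong to 2 pairs, so a change at that site can be counted more than once. For 72 hpf against 24 hpf, plus-strand 62052934 was in a pair moved upstream and in a pair moved downstream. For the adult against 24 hpf, 33 pairs of the arm were measured, and 7 moved upstream by at least 20 points, beside 10.1% of all pairs, while 2 moved downstream, beside 4.09%. For the adult against 72 hpf, 5 of 38 moved upstream, beside 11.7%, and 4 downstream, beside 3.08%. For 72 hpf against 24 hpf, 7 of 51 moved each way, beside 5.03% upstream and 7.15% downstream.

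The minus-strand pair at 61264308 and 61261304, 3004 nt apart, had the largest downstream shift of the pairs that reached 50 tags per library. Its downstream share was 26.3% at 24 hpf (15.5% to 39.7%), 46.9% at 72 hpf (36.6% to 57.3%) and 89.2% in adults (79.8% to 95.2%). The plus-strand pair at 58204547 and 58208978 went upstream, from 28.8% (17.8% to 42.1%) to 1.33% (0.0338% to 7.21%) and 0 of 57 tags (up to 6.27%). In the plus-strand pair at 60743386 and 60743766, 380 nt apart, the downstream share was 100% of 56 tags at 24 hpf (93.6% to 100%), 97.1% at 72 hpf (95.6% to 98.1%) and 75.6% in adults (70.5% to 80.3%).

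Ends of opposite strands seldom met on the arm, where clusters were also sparser, at 26.1 per Mb against 75.9 below 28 Mb. The part of this lower density was not tested. Of the 888 clusters, 9 (1.01%, 0.464% to 1.92%) had a cluster of the other strand within 100 nt, against 111 of 2125 (5.22%, 4.32% to 6.26%) below 28 Mb and 4.75% of all clusters. The strongest of them was the minus-strand site at 61218247, with 83 tags in all, 29 nt from a plus-strand site with 5. The plus-strand sites at 60408837 (37 tags) and 62059133 (26 tags) followed, and their partners had 7 and 4 tags. The position of the ends within a cluster was about as sharp as elsewhere. Among clusters with at least 20 tags, the median share of tags at the leading position was 75.9% on the arm (288 clusters), 78.6% below 28 Mb and 78.3% over all.

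At the boundary the clusters were weak on both sides. The first inside it were plus-strand 28129940 (5, 6 and 0 tags in stage order), plus-strand 28134942 (1, 2 and 1) and minus-strand 28136451 (0, 4 and 0). The last outside it were minus-strand 27936477 (0, 0 and 4), plus-strand 27946019 (0, 9 and 0) and minus-strand 27952621 (0, 12 and 0).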

How the data were processed

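The authors deposited, for each 3P-Seq library, genomic intervals with a strand and a whole number, read here as the raw tag count per interval; no label or header names it. Tags were aligned with Bowtie to Zv9 (danRer7), per the submitters' processing notes; neither its version nor its handling of multiple matches is given in the sources used here. The header's display offset of 1 was added to positions. The 3′ end is the interval's end (plus) or start (minus). Pooled ends were clustered per strand, most tags first, each absorbing ends within 10 nt; those reaching 4 tags were kept. Calls were made over all clusters, with Python 3.11.15, numpy 2.4.6, pandas 2.3.3 and scipy 1.17.1. For interval profiles, intervals with under 10 tags over both sites were pooled, and at least 3 classes were required. Named sites are the 5 with most tags per library, the 5 largest called folds per pair and direction with at least 100 tags, the 3 on each side of the boundary, the leading near-equal groups, shifted pairs and opposite-strand sites, and the leading bins. The other sites named, the segments, the row of 6 and the stretch were chosen after their values were seen. The members and lists were chosen with earlier results of these data known. Steps were tested on simulated data. The 13 other samples and sequence features were not analysed here.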

Additional observations from a re-analysis of the deposited data

How the results depend on the processing

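No paired analysis was possible because each stage has 1 library. Depth limits most sites: 67.6% of the arm's clusters had under 20 tags, and were not tested for calls, since a call needs 20 tags over a pair. The share of tags at 24 hpf, 72 hpf and in the adult, in that order, was 0.787%, 0.613% and 0.595% with distinct intervals, 0.157%, 0.125% and 0.609% from 30 Mb on, 0.193%, 0.164% and 0.260% without near-equal clusters, 0.146%, 0.123% and 0.271% without the 5 leading clusters, and 0.213% in the adult without the row of 6, a setting chosen after seeing the data. Detection at 10 tags gave 222, 226 and 177 clusters. The adult ratio to 72 hpf and to 24 hpf was 0.970 (0.917 to 1.03, an interval that includes 1) and 0.755 with distinct intervals, both below 1, 4.71 and 3.78 with median-ratio scaling, 1.59 and 1.35 without near-equal clusters, 1.54 and 1.33 without the 5 leading clusters, and 1.21 and 1.05 without the row of 6. The ratio of 72 hpf to 24 hpf, 0.855, was 0.778 with distinct intervals, 0.803 with median-ratio scaling and 0.756 without the 5 leading clusters. Median-ratio scaling moved the log2 ratios by 0.39, 0.30 and -0.09 in the order adult to 72 hpf, adult to 24 hpf and 72 hpf to 24 hpf. Calls with distinct intervals, higher then lower, were 0 and 1 (3.125%) of 32 between the embryo libraries, beside 0.290% and 0.566% of all clusters. From 72 hpf to adult they were 11 (21.2%) and 0 of 52 tested, beside 5.59% and 2.82%. From 24 hpf to adult they were 8 (17.0%) and 3 (6.38%) of 47 tested, beside 3.55% and 3.11%. The 8-fold rule, with an interval excluding 4-fold, gave 10 higher (4.52%) at 72 hpf than at 24 hpf and 28 lower (12.7%). These stood beside 8.90% and 3.69% of all clusters under that rule. For the adult against 72 hpf it gave 47 higher (21.1%) and 20 lower (8.97%), beside 13.5% and 12.4%. For the adult against 24 hpf it gave 50 higher (24.5%) and 36 lower (17.6%), beside 14.8% and 9.64%. Median-ratio scaling left 40 lower (17.9%) for the adult against 72 hpf, beside 21.8% of all clusters. Leaving out the bin from 61 Mb was also chosen after seeing the data. It left 17 of 180 lower (9.44%) for 72 hpf against 24 hpf, beside 7.99% of all clusters. In the adult, 32 of 181 (17.7%) were then higher than at 72 hpf, beside 19.1%. Against 24 hpf it was 42 of 149 (28.2%), beside 23.5%. Shifted pairs numbered 3, 4 and 2 at 40 points and 3, 2 and 4 at 50 tags, against 14, 9 and 9, in the order 72 hpf to 24 hpf, adult to 72 hpf and adult to 24 hpf. Shares over all pairs at these settings were not computed, so these counts cannot be set beside the genome. With 1000 tags as the minimum, 5 clusters were near-equal. Opposite ends within 500 nt numbered 20, and 0 with clusters of at least 20 tags. The cause of these moves was not tested. Of the values recomputed, 49 moved away from the main ones and 2 ratios fell on the other side of 1. The other 61 stayed close to the main ones, within 1.5 times for counts and inside the counting interval for shares and ratios. Among these, the counts of detected clusters, 447, 468 and 334 in stage order, changed their order under 2 settings. Thinning to the smallest library gave 447, 382 and 334, with 24 hpf highest. Requiring at least 2 distinct intervals gave 333, 338 and 404, with the adult highest.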
